A study of Oncorhynchus mykiss with 6 samples.

Results

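Genes that KEGG, a database of annotated pathways, places in its class of protein folding, sorting and degradation, other than most chaperone genes, were followed in ribosome footprints of rainbow trout (Oncorhynchus mykiss) liver. Members were the genes whose second-level KEGG column reads as this class, less a fixed list of symbols. In this table the list removed heat shock and other chaperones and co-chaperones, the stress regulator xbp1, and the ERAD genes VCP and vimp. This gave 60 of the 1213 genes in the deposited table. The KEGG column was empty for 680 of the 1213. Below, outside the class means not marked with it in that column. A further 24 genes of the class were left out by symbol. The 60 carry 49 distinct symbols, because 11 symbols have 2 entries each. The list left chaperones out by symbol, and folding helpers such as calnexin, the protein disulfide isomerases and the co-chaperone SIL1 remain among the members.

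Footprints are the short pieces of mRNA that a translating ribosome shields from nuclease. Liver of trout, a cold-water fish, was sampled in 3 control libraries and in 3 heat stress libraries from 24 °C for 8 h. The control temperature is 18 °C in the sample descriptions and the design text and 20 °C in the treatment protocol. The labels give no strain, age or sex and leave it unsaid whether each library stands for its own fish. The p-values therefore describe how far these libraries spread, and part of that spread may be technical.

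A protein bound for secretion or for a membrane enters the endoplasmic reticulum (ER) through the Sec61 channel, to which the signal recognition particle (SRP) and its receptor bring the ribosome. Inside, disulfide isomerases and lectins help it fold. Proteins that fold leave in COPII-coated vesicles, which fuse with the Golgi through SNARE proteins. Proteins that do not are pulled back to the cytosol by ER-associated degradation (ERAD), tagged with ubiquitin and cut up by the proteasome. Liver is a major secretory organ, and the ATF6 branch of the unfolded protein response is known from mammals to switch on many of these genes.

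The table holds genes that passed the authors' own selection on these libraries, with an FDR (p-value adjusted for the number of genes) no higher than 0.0494 and a log2 fold change of at least 1.003 in size. A member's difference between the groups was therefore a condition for being listed, and genes of the class outside that selection were not analysed here. Listed footprints summed to between 362308 and 863769 per library, and the members' footprints to between 11636 and 59607. Library depth, recovered from counts and FPKM (footprints scaled to gene length and library depth), was 41.4% to 82.0% of that of control replicate 1 in the other libraries. Hepatocyte markers were listed with 11 distinct entries, 3 of which (TFG, listed under 2 entries, and tfcp2l1) match by letters alone. Of the 11, 4 rose, 6 fell and 1 did not pass. Both TFG entries are among the 4 that rose, and tfcp2l1 is among the 6 that fell. Their summed level was 31901 to 32928 FPKM in control and 11394 to 17949 FPKM in heat stress. The albumin gene alb1 had means of 3901 and 1631 FPKM, and the fibrinogen gene fga 311 and 813 FPKM. The fibroblast marker col1a1b went from 64.7 to 28.7 FPKM. From the bile duct list, krt18 went from 56.1 to 152 FPKM, and whether it marks bile duct cells alone here was not tested. The part of these marker levels in the results was not tested. No listed symbol matched the markers of red blood cells, leukocytes or endothelium. In a tissue sample fewer cells of a type and fewer footprints per cell cannot be told apart, and footprints reflect mRNA amount as well as translation.

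Nearly every member was higher in heat stress, and the lower ones include both proteasome subunit genes. The authors' deposited table gives 57 members as higher and 3 as lower, among them Psma4 and PSMB7. Of all 1213 listed genes it gives 76.2% as higher and 23.8% as lower. Tested again with limma-voom at recovered depth, 54 of 58 members with enough footprints rose, 1 fell and 3 did not pass an adjusted p of 0.05. Among all 1152 listed genes tested, 87.5% passed, 71.3% as higher and 16.2% as lower. The median log2 fold change, taken with its sign, was 1.67 over the tested members and 1.66 over all genes tested. At recovered depth 56 of the 58 tested members and 882 of the 1152 genes lay above 0. Falls lower the median of all genes more, so the medians do not compare the size of the rises. Of the 24 genes of the class left out by the rule, mostly chaperones, 24 rose, with a median of 2.96. FPKM did not overlap between the groups in any of the 60 members, where 98.7% of all listed genes did not overlap.

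Scalings that centre the listed genes moved members and other genes alike. With TMM factors, which take most listed genes as unchanged in a table of genes selected for change, the median of all tested genes shifted by -1.48, and the members' median stayed within 0.02 of it. Then 6 members rose and 2 fell, where 7.81% of all genes tested rose and 23.1% fell (30.9% either way). Median-of-ratios factors gave 6 and 2 members too, where 7.64% of all genes tested rose (30.7% either way). Summed listed footprints as library sizes gave 12 and 2, where 18.0% of all genes tested rose and 22.7% fell (40.7% either way). The sign turned in 22 members under TMM, in 24 under median-of-ratios factors and in 0 with summed listed footprints as library sizes, and 0 of these turned members passed the test. Members that turned were 37.9% and 41.4% of those tested, and 19.0% and 22.0% of all listed genes tested turned. Counting only those above 0 at recovered depth, 39.3% and 42.9% of members turned, and 24.8% and 28.8% of all genes tested. Under such a shift the sign of a gene depends on the size of its fold change at recovered depth. The 6 members that rose under TMM were SIL1, the more abundant entries of PDIA6, Herpud1 and CKAP4, ube2j1 and FBXO6. These 6 kept their calls under each scaling, filter and left-out library in which they were tested, FBXO6 being too low for the filter at 10 FPKM. The share of all genes tested that did so is not given here. At recovered depth the number of members that rose was 35 without control replicate 1 and 34 without control replicate 3, and between 37 and 55 without each of the other libraries. Of all 1152 genes tested, 446 and 552 rose without these 2 control libraries, and between 558 and 833 without each of the others. Calls that survived the removal of any 1 library numbered 33 among the 58 tested members, and 40.6% of all genes tested had such a call.

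**Figure D1:**
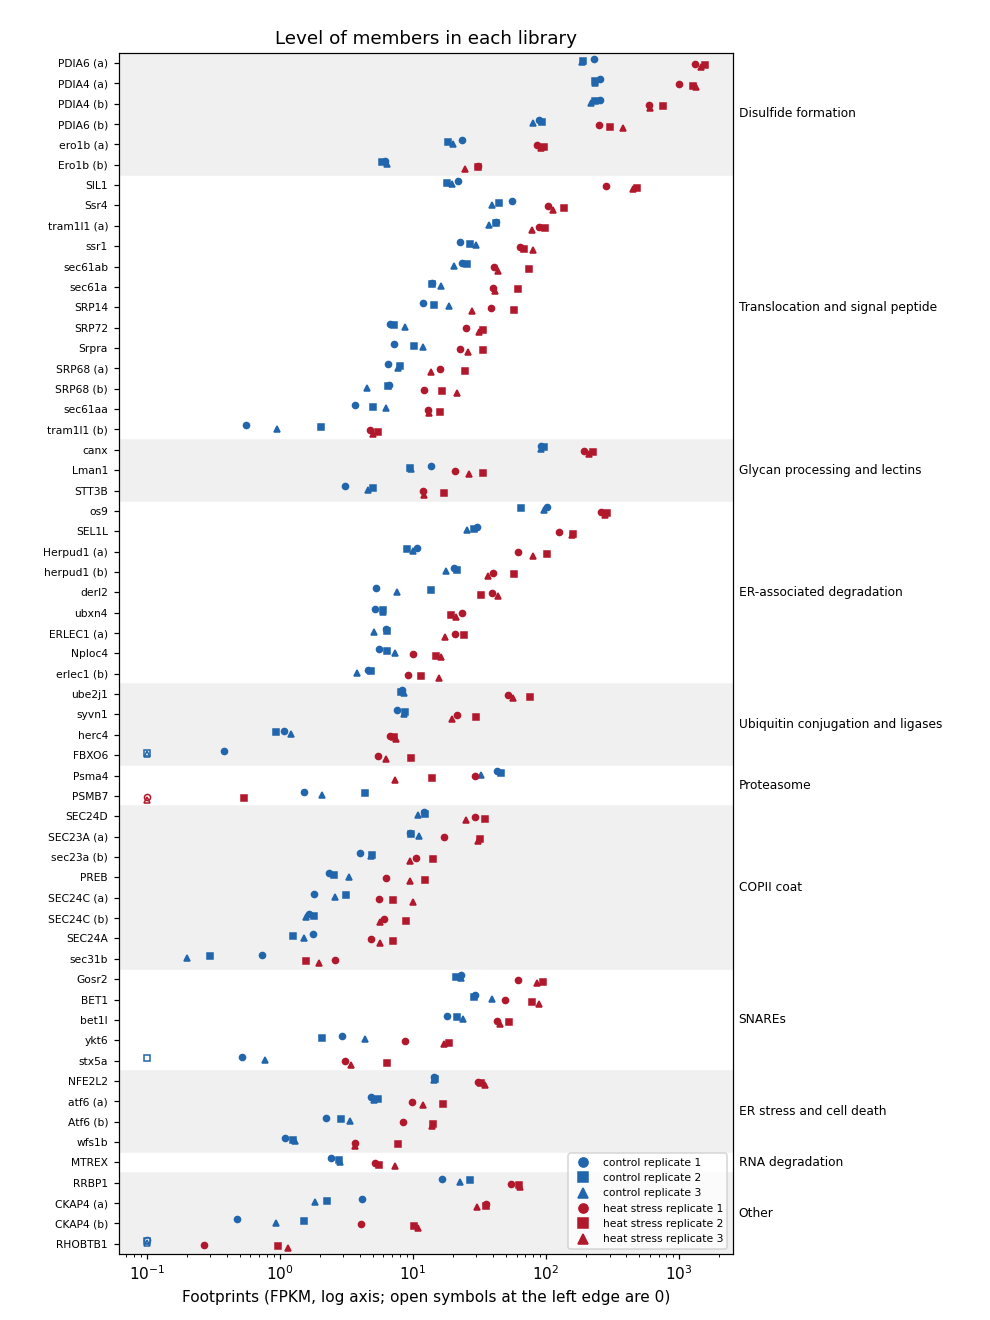
Level of 59 members in each library, in FPKM on a log axis, grouped by role, with control in blue and heat stress in red and 1 symbol shape per replicate. Open symbols at the left edge are libraries at 0, and (a) and (b) mark the more and the less abundant entry of a symbol. The red points lie to the right of the blue ones except for Psma4 and PSMB7, where they lie to the left; FPKM rests on library depth, and 22 members change sign with TMM factors.

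**Figure D2:**
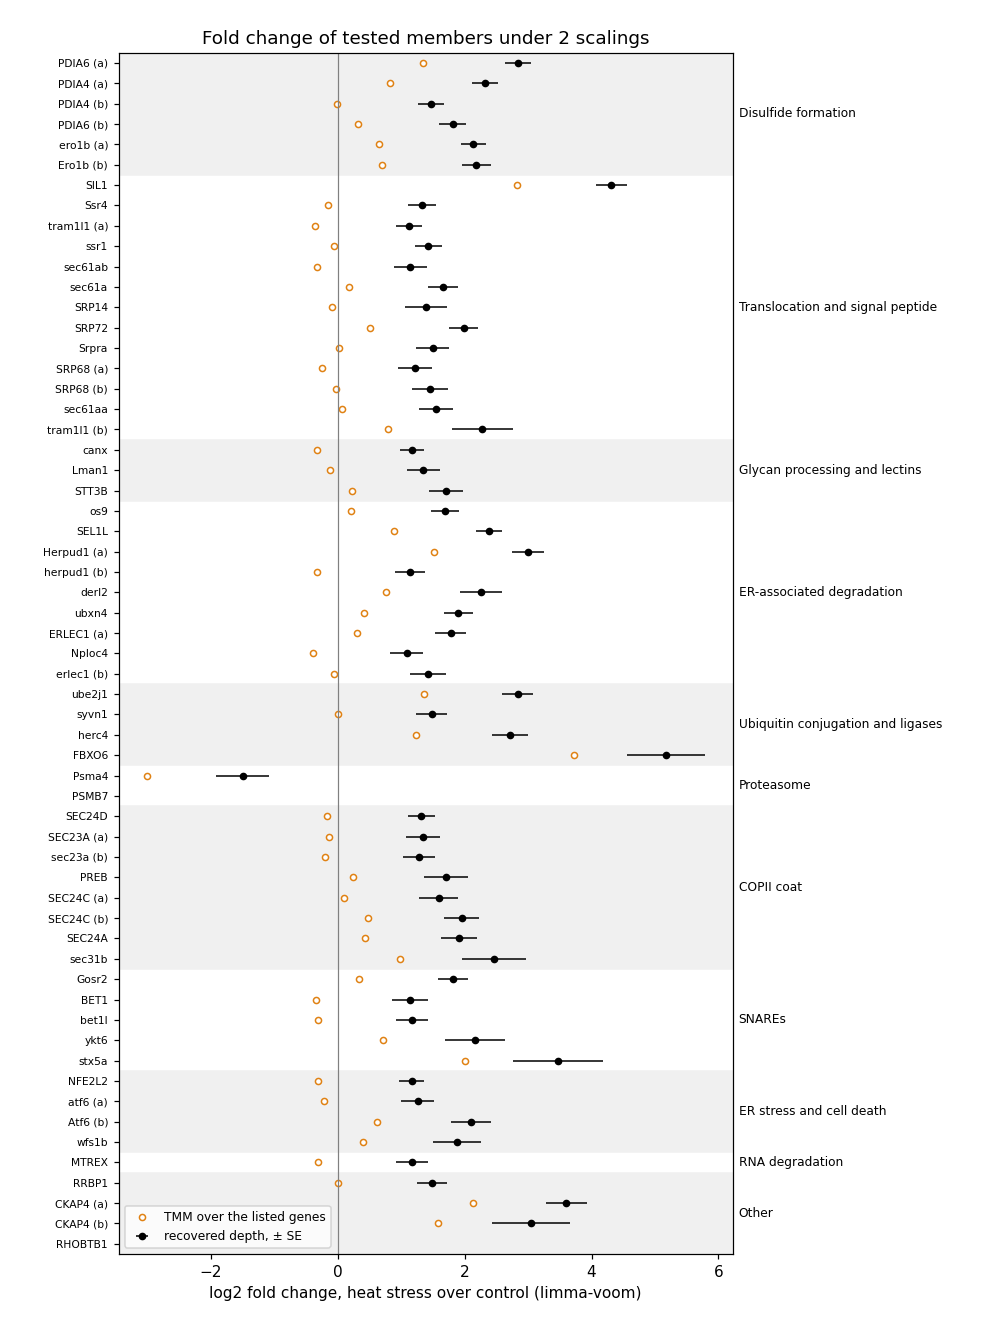
The log2 fold change of heat stress over control for 57 tested members by limma-voom, at recovered depth (black, ± SE) and with TMM factors over the listed genes (orange, open). Moving to TMM displaces the points to the left by about the same amount, and 22 members then cross 0. PSMB7 and RHOBTB1 had too few footprints for the test.

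Summed over the members, FPKM was 1683, 1595 and 1599 in control replicates 1, 2 and 3. In heat stress replicates 1, 2 and 3 it was 5377, 6814 and 6383. The heat stress sum was 3.81 times the control sum, with no overlap. The exact permutation test (two-sided) gave p = 0.1, the smallest that 3 against 3 libraries allow. Members were listed for a difference between these same groups, nearly all upwards. The separation, here and in sums over fewer members, is therefore no independent test. The ratio was 1.35 with TMM factors. A measure that needs no depth is the members' share of listed footprints, which was 3.74%, 3.25% and 3.21% in control and 6.49%, 7.27% and 6.90% in heat stress. The 4 entries of PDIA4 and PDIA6 made up 47.0% ± 2.20 of the summed member FPKM in control and 58.3% ± 1.24 under heat (SD, n = 3). Without them the sum rose from 861 ± 21.0 to 2585 ± 356 FPKM, with no overlap between groups (exact permutation test p = 0.1). The order of the members by level was kept in large part, with a Spearman rho over the 60 members of 0.955 to 0.987 between libraries of 1 group and 0.837 to 0.922 between control and heat stress libraries. These members share libraries and depth, so rho is a description.

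**Figure D3:**
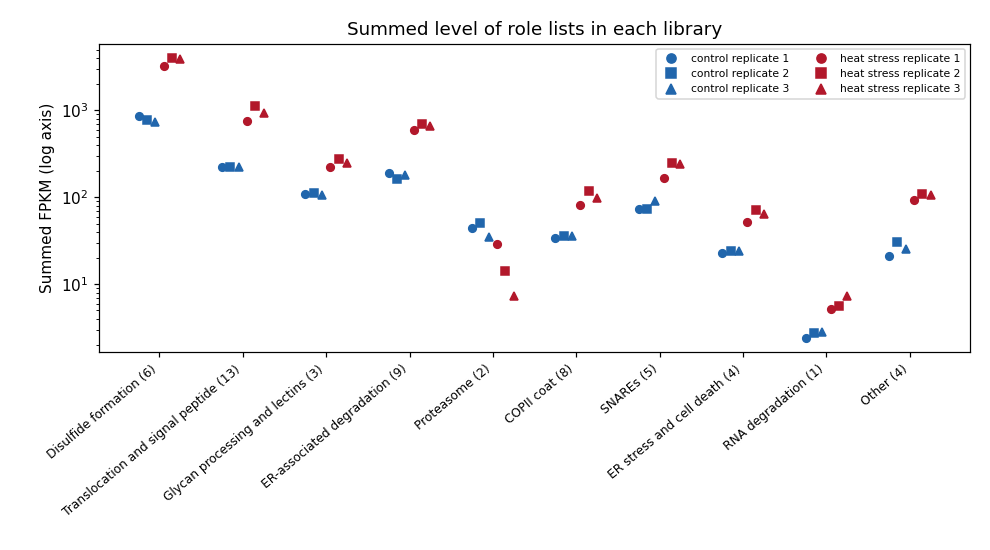
Summed FPKM of the members of 10 role lists in each library, on a log axis, with the number of members in brackets. Control (blue) and heat stress (red) libraries do not overlap in any of the 10 lists drawn on this scale, which rests on library depth. A role list left out of the drawing is not covered by this. Taken singly, 98.7% of all listed genes did not overlap. The proteasome list is the one with lower sums in heat stress.

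The 3 most abundant members were both PDIA4 entries and the more abundant PDIA6 entry, all for enzymes that form disulfide bonds. All 6 entries of PDIA6, PDIA4 and ero1b rose, where 71.3% of all listed genes tested rose. Their median log2 fold change was 2.16 at recovered depth and 0.67 under TMM. Under TMM the less abundant PDIA4 entry was just below 0 (-0.01, not called). PDIA6 and PDIA4 are disulfide isomerases of the ER, which make and reshuffle the bonds, and ero1b is the oxidase that reloads such isomerases. The more abundant PDIA6 entry had 230.4, 189 and 187 FPKM in control replicates 1, 2 and 3 and 1306, 1553 and 1459 FPKM in heat stress replicates 1, 2 and 3. It rose 7.12-fold in mean FPKM, with a log2 fold change of 2.84 ± 0.20 (SE, limma-voom adjusted p = 4.13e-05), and moved from the third highest mean level of the members to the highest. The less abundant PDIA6 entry had 88.2, 93.4 and 79.8 FPKM in control and 249, 305 and 376 in heat stress.

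PDIA4 shows how a pair of entries can start at the same level and end apart. In control the more abundant entry had 254, 234 and 233 FPKM and the other 254, 235 and 216. In heat stress the first had 1002, 1264 and 1345 FPKM and the second 597, 756 and 607. Their log2 fold changes were 2.31 ± 0.21 and 1.47 ± 0.20 (SE). For ero1b the more abundant entry had 23.4, 18.4 and 20.1 FPKM in control and 85.1, 97.0 and 91.8 in heat stress, and the other 6.21, 5.85 and 6.40 and then 30.8, 30.6 and 24.6. The 6 calls held with each library left out, as did those of 40.6% of all genes tested. Of disulfide genes not marked with the class in the KEGG column, 5 of 5 listed entries rose, against 71.3% of all genes tested. Under TMM 3 of the 5 were below 0, none called, and under median of ratios 4. Of these 5 calls 2 held with any 1 library removed. PDIA3 lost its call without control replicate 1, ERP44 without control replicate 1 or 3 or heat stress replicate 2 or 3, and a creld2 entry without control replicate 2 or 3 or heat stress replicate 3. In the list the more abundant of 2 pdia3 entries, for a disulfide isomerase that works with the lectins, rose from 108 ± 8.80 to 292 ± 41.1 FPKM (SD, n = 3).

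SIL1 had the second largest log2 fold change of the tested members, after FBXO6, which had 2 control footprints. SIL1 is an exchange factor that makes BiP, the Hsp70 of the ER, release ADP, so that BiP can let go of its client. Its level was 21.7, 18.1 and 19.5 FPKM in control replicates 1, 2 and 3 and 284, 483 and 446 FPKM in heat stress replicates 1, 2 and 3. Heat stress libraries stood far above the control libraries, and replicate 1 was the lowest of them. The log2 fold change was 4.31 ± 0.25 (SE, limma-voom adjusted p = 6.16e-06) at recovered depth and 2.83 under TMM. As a ratio that no scaling touches, SIL1 stood at 0.212 ± 0.024 of the level of canx in control. In heat stress it stood at 1.92 ± 0.379 of it (SD, n = 3, exact permutation test p = 0.1). This pair was not in the test plan, and canx had a log2 fold change of 1.16 ± 0.19 (SE). The ratio restates the fold changes of the pair and is a description.

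The parts that carry a nascent protein to and through the ER membrane rose by less than SIL1. Together with SIL1, 13 of 13 tested entries rose, where 71.3% of all listed genes tested rose. The median log2 fold change of the 13 was 1.45. That of all genes tested, 1.66, takes in falls, so the medians do not compare the size of rises. Under TMM 7 and under median of ratios 8 of the 13 were below 0, none called. SRP72, a protein of the particle that reads the signal peptide, had 6.72, 7.24 and 8.75 FPKM in control and 25.0, 33.8 and 31.5 in heat stress. The Sec61 channel subunit entry sec61a had 13.9, 14.0 and 16.3 FPKM and then 40.05, 61.1 and 41.3. For ssr1, a subunit of the translocon-associated complex, control libraries had 22.6, 26.7 and 29.7 FPKM and heat stress libraries 63.6, 68.2 and 79.9. In these 3 genes each heat stress library stood above each control library, where 98.7% of all listed genes did not overlap between the groups.

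Other entries of this machinery were sec61aa and sec61ab, the SRP subunit entries SRP14 and SRP68, the SRP receptor Srpra, Ssr4 of the translocon-associated complex, and tram1l1, a membrane protein beside the channel. Their mean levels were between 1.18 and 46.5 FPKM in control and between 5.09 and 118 FPKM in heat stress. Ssr4, the highest of them, rose from 46.5 ± 8.05 to 118 ± 17.4 FPKM, and Srpra from 9.77 ± 2.40 to 27.3 ± 5.51 FPKM (SD, n = 3). The 3 Sec61 alpha entries had log2 fold changes of 1.66 ± 0.24 for sec61a, 1.54 ± 0.27 for sec61aa and 1.14 ± 0.26 for sec61ab (SE). Whether they differ from each other was not tested. Among all 1152 genes tested 821 rose, and 446 and 552 rose without control replicates 1 and 3. Calls were lost with 1 library left out in several entries of this machinery. That of sec61aa was lost without control replicate 1 (adjusted p = 0.0626 by limma-voom) and that of the more abundant tram1l1 entry without control replicate 3 (adjusted p = 0.0576 by limma-voom). The other tram1l1 entry, both SRP68 entries, sec61ab and SRP14 lost theirs without several libraries, control replicates 1 and 3 and heat stress replicate 2 for each of them, with limma-voom adjusted p up to 0.349 for SRP14. That of SRP14 was the only member call lost without heat stress replicate 1. TRAM2, of the same list but outside the KEGG class, did not pass (limma-voom adjusted p = 0.0645).

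Among the genes of sugar chains and lectins, canx, STT3B and Lman1 rose, while under TMM and median of ratios canx and Lman1 were below 0, neither called. Calnexin, the product of canx, holds newly made glycoproteins until they fold, and STT3B is a catalytic subunit of the enzyme that attaches their sugar chains. Levels of canx were 91.99, 96.4 and 91.4 FPKM in control and 192, 224 and 211 FPKM in heat stress, a log2 fold change of 1.16 ± 0.19 (SE, limma-voom adjusted p = 0.0063). STT3B had 3.10, 4.99 and 4.62 FPKM and then 11.9, 17.1 and 12.1. Lman1 encodes a lectin that carries glycoproteins from the ER towards the Golgi. It had 13.7, 9.43 and 9.74 FPKM in control and 20.9, 33.6 and 26.2 in heat stress, and its call was lost without control replicate 2 or 3 or heat stress replicate 2 or 3 (adjusted p up to 0.0763 by limma-voom). Of the same list outside the class, 8 of 8 entries rose, where 71.3% of all listed genes tested rose. Under TMM alg5 was below 0 and not called. CALR, the soluble relative of calnexin and 1 of 4 calreticulin entries, rose from 399.5 ± 42.9 to 1339 ± 144 FPKM (SD, n = 3).

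Genes of ERAD, the route by which misfolded proteins leave the ER, rose in 8 of 9 entries, where 71.3% of all listed genes tested rose. Nploc4 did not pass, and VCP and vimp are not among the 9. The median log2 fold change of the 9 was 1.78 at recovered depth and 0.30 under TMM. Below 0 under TMM and median of ratios, and not called, were Nploc4 and the less abundant entries of erlec1 and herpud1. The lectins OS9 and ERLEC1 recognise the sugar chains of misfolded proteins and hand them to SEL1L, the adaptor of the ubiquitin ligase HRD1. SEL1L had 30.1, 28.9 and 25.3 FPKM in control replicates 1, 2 and 3 and 125, 159 and 156 FPKM in heat stress replicates 1, 2 and 3, a log2 fold change of 2.38 ± 0.20 (SE, limma-voom adjusted p = 0.000129). Levels of os9 were 102, 64.8 and 96.3 FPKM and then 259, 285 and 279. Each heat stress library lay above each control library in both genes, where 98.7% of all listed genes did not overlap between the groups.

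HERPUD1 is a membrane protein that binds HRD1 and is itself a known target of ER stress signalling in mammals. The more abundant Herpud1 entry had 10.6, 8.97 and 10.03 FPKM in control and 61.3, 102 and 79.97 in heat stress, and rose 8.20-fold in mean FPKM (limma-voom adjusted p = 0.000117). The other herpud1 entry, the higher one in control, went from 19.8 ± 1.85 to 44.6 ± 10.9 FPKM (SD, n = 3), a 2.25-fold rise. For ubxn4, a membrane protein that recruits the extracting ATPase VCP, values were 5.22, 5.91 and 5.95 FPKM and then 23.3, 19.4 and 20.9. The rhomboid-like derl2, a part of the exit channel, went from 8.82 ± 4.29 to 38.5 ± 5.85 FPKM, and the more abundant ERLEC1 entry from 5.93 ± 0.737 to 20.8 ± 3.45 FPKM (SD, n = 3). Nploc4, a VCP cofactor, was at 6.44 ± 0.901 FPKM in control and 13.7 ± 3.25 in heat stress (limma-voom adjusted p = 0.0517). The less abundant erlec1 entry lost its call without control replicate 1, 2 or 3 or heat stress replicate 2 or 3, and the less abundant herpud1 entry without control replicate 1, 2 or 3 or heat stress replicate 2. Their adjusted p reached 0.116 (limma-voom).

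In the ubiquitin list the enzyme and ligase genes ube2j1, herc4, FBXO6 and syvn1 rose, while syvn1 was below 0 under median of ratios and not called. These 4 calls held with each library left out in turn, as did those of 40.6% of all genes tested. UBE2J1 is the membrane-bound conjugating enzyme of ERAD. Its FPKM was 8.24, 8.11 and 8.58 in control and 52.0, 75.8 and 56.1 in heat stress, a log2 fold change of 2.84 ± 0.25 (SE, limma-voom adjusted p = 0.000136). The gene of the HRD1 ligase, syvn1, went from 8.28 ± 0.626 to 23.7 ± 5.51 FPKM (SD, n = 3). Between SEL1L and its partner syvn1 the ratio of FPKM went from 3.42 ± 0.508 in control to 6.36 ± 1.39 in heat stress. The groups did not overlap (SD, n = 3, exact permutation test p = 0.1). This pair too was outside the test plan, and its ratio restates the fold changes of the pair, so it is a description.

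FBXO6 encodes an F-box protein that binds the sugar chains of misfolded glycoproteins. It had 0.38, 0 and 0 FPKM in control and 5.44, 9.66 and 6.27 in heat stress. The control group held 2 footprints and the heat stress group 76, which makes 47.0-fold at equal depth with a 95% exact interval of 12.6 to 395, for counting error alone. The ligase gene herc4 had 1.07, 0.93 and 1.22 FPKM and then 6.74, 7.22 and 7.45 FPKM. Here the groups lie far apart relative to their spread, at low level.

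Both proteasome members were lower in heat stress, Psma4 without a call in the test used throughout and PSMB7 with too few footprints for it. PSMA4 is an alpha subunit that helps form the outer ring of the proteasome core, and PSMB7 a catalytic beta subunit. Psma4 had 43.1, 45.8 and 32.5 FPKM in control and 29.2, 13.8 and 7.30 in heat stress. Groups did not overlap, as in 98.7% of all listed genes, but the heat stress libraries differed widely (log2 fold change -1.50 ± 0.41 SE, limma-voom adjusted p = 0.112). It passed under TMM (log2 fold change -3.01, limma-voom adjusted p = 0.00592) and under both other scalings. With adjustment over the listed genes alone it passed (limma-voom adjusted p = 0.0044), where 881 of 1152 genes rose and 270 fell. Without heat stress replicate 1, its highest heat stress library, it passed (-2.11, limma-voom adjusted p = 0.00537), where 833 rose and 139 fell. It failed without each of the other libraries in turn (limma-voom adjusted p = 0.152 to 0.557) and with the FPKM filter (limma-voom adjusted p = 0.221). On log2(FPKM + 1) and log2(FPKM + 0.1) it failed too (limma-trend adjusted p = 0.136 and 0.246). PSMB7 had 1.51, 4.39 and 2.08 FPKM in control and 0, 0.54 and 0 in heat stress. That is 37 footprints against 1, a control level 29.9 times that of heat stress at equal depth with a 95% exact interval of 5.04 to 1212, for counting error alone. With no filter on low counts PSMB7 passed (limma-voom adjusted p = 0.0221), where 846 of 1213 genes rose and 201 fell. No other proteasome symbol was listed.

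Outside the class, 26 listed entries matched the ubiquitin list by the start of their symbol, among them cblnl and several ddx helicase genes that match by letters alone. Of 24 tested, 17 rose, 3 fell and 4 did not pass, where 71.3% of all genes tested rose and 16.2% fell. Under TMM 4 turned sign. The 3 that fell were UBB and the ligase genes Rnf130, whose call was lost without heat stress replicate 1 or 2, and Itch, whose call was lost without heat stress replicate 1 or 3. UBB went from 1009 ± 112 to 352 ± 65.6 FPKM (SD, n = 3), with a log2 fold change of -1.53 (limma-voom adjusted p = 0.00278), and stayed called lower under each scaling, filter and left-out library tried. Reads of its repeated units may have been shared with similar genes. Of 3 entries matched as deubiquitinases, usp19 rose, a call lost without each library but heat stress replicate 1, USP24 did not pass and Usp6nl, which matches by letters alone, was not tested.

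COPII coat genes rose in 8 of 8 entries, where 71.3% of all listed genes tested rose. Their median log2 fold change was 1.65 at recovered depth and 0.17 under TMM. That of all genes tested at recovered depth, 1.66, takes in falls, so the medians do not compare the size of rises. Under TMM SEC24D and both sec23a entries were below 0, none called. COPII is the coat that buds vesicles from the ER, with SEC23 and SEC24 as inner and SEC31 as outer coat, and PREB (SEC12) as the factor that starts assembly. SEC24D, the most abundant SEC24 entry, had 12.1, 12.4 and 11 FPKM in control and 29.1, 34.9 and 25.2 in heat stress. SEC24A had 1.76, 1.26 and 1.51 FPKM and then 4.88, 7.07 and 5.66, and the less abundant SEC24C entry 1.67, 1.81 and 1.58 and then 6.06, 8.80 and 5.70. These 3 calls held with each library left out, as did those of 40.6% of all genes tested. The other SEC24C entry had 1.82, 3.14 and 2.58 FPKM in control and 5.53, 7.05 and 9.98 in heat stress. Its call was lost without control replicate 1 or 3 or heat stress replicate 3, that of sec31b without control replicate 2 or 3 or heat stress replicate 3, and those of both sec23a entries and PREB without each control library and heat stress replicate 2. Their adjusted p reached 0.143 (limma-voom). For PREB and the more abundant SEC23A entry the same held without heat stress replicate 3. Listed outside the class, SEC23IP rose, a call lost without control replicate 1.

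The SNARE genes, which drive fusion of ER vesicles with the Golgi, gave 4 rises among 5 entries, where 71.3% of all listed genes tested rose. BET1 did not pass, and under TMM bet1l and BET1 were below 0, neither called. Gosr2 had 22.8, 21.0 and 23.1 FPKM in control and 62.0, 94.5 and 85.0 FPKM in heat stress (log2 fold change 1.81 ± 0.24 SE, limma-voom adjusted p = 0.00169). It was the SNARE call that held with each library left out. For ykt6 the values were 2.94, 2.09 and 4.39 FPKM and then 8.73, 18.7 and 17.2, and for bet1l 18.1, 21.6 and 23.8 and then 42.5, 52.7 and 45.0. Syntaxin 5, stx5a, had 0.52, 0 and 0.78 FPKM in control and 3.06, 6.42 and 3.41 in heat stress, from 6 and 50 footprints. Calls of ykt6 and bet1l were lost without each control library and heat stress replicates 2 and 3 in turn, and that of stx5a without control replicate 1 or 2 or heat stress replicate 2 or 3. Their adjusted p reached 0.165 (limma-voom). BET1 was at 32.3 ± 5.87 FPKM in control and 72.4 ± 20.7 under heat (SD, n = 3, limma-voom adjusted p = 0.0612). A syntaxin gene outside the class, stx18, did not pass.

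Of the members known as regulators of ER stress, both atf6 entries, NFE2L2 and wfs1b rose, while NFE2L2 and the more abundant atf6 entry were below 0 under TMM, neither called. ATF6 is a membrane-bound transcription factor that is cut free when unfolded proteins build up in the ER. The less abundant Atf6 entry had 2.23, 2.89 and 3.36 FPKM in control and 8.46, 14.2 and 13.8 in heat stress, and the other 4.81, 5.48 and 5.08 and then 9.78, 16.8 and 11.8. NFE2L2, the NRF2 factor of the antioxidant response, had 14.5, 14.7 and 14.4 FPKM in control and 30.6, 32.3 and 35.0 in heat stress. Its control libraries differed by little, and its log2 fold change was 1.17 ± 0.20 (SE, limma-voom adjusted p = 0.00725). The ER membrane protein gene wfs1b had 1.10, 1.25 and 1.31 FPKM and then 3.64, 7.72 and 3.67. Without control replicate 1, 2 or 3 the wfs1b call was lost, and without those or heat stress replicate 2 or 3 that of the more abundant atf6 entry. Their adjusted p reached 0.136 (limma-voom). The list from which these members came covers ER stress and cell death and was matched by the start of the symbol, so outside the class it also took in NF-kappa-B and MAP kinase genes, Capn1 and TXNIP. Of its 23 listed entries there, 19 rose, 2 fell and 2 did not pass, where 71.3% of all genes tested rose and 16.2% fell. Under TMM 4 of the 23 turned sign. MAP3K19 and TXNIP were the 2 that fell. Calls of 11 of the 23 held with any 1 library removed, and that of TXNIP was lost without control replicate 1 or 2 or heat stress replicate 2 or 3.

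CKAP4 and RRBP1 are membrane proteins of the ER that shape its sheets and bind it to microtubules or ribosomes. The more abundant CKAP4 entry had 4.14, 2.27 and 1.84 FPKM in control and 35.1, 35.1 and 30.5 in heat stress, a 12.2-fold rise in mean FPKM (log2 fold change 3.60 ± 0.32 SE, limma-voom adjusted p = 0.000146). The other CKAP4 entry had 0.48, 1.53 and 0.93 FPKM and then 4.07, 10.1 and 10.9, a call lost without control replicate 1 or 3 or heat stress replicate 2 or 3 (adjusted p up to 0.131 by limma-voom). RRBP1 had 16.4, 27.04 and 22.7 FPKM in control and 54.7, 63.1 and 64.0 in heat stress, and rose at recovered depth, with a log2 fold change of 1.48 there and just below 0 under TMM. Of MTREX, the helicase of the nuclear RNA exosome and the RNA degradation member, values were 2.41, 2.76 and 2.81 FPKM and then 5.16, 5.57 and 7.34. It rose at recovered depth (limma-voom adjusted p = 0.0277), was below 0 under TMM and not called, and lost its call without each library but heat stress replicate 1 (adjusted p up to 0.166 by limma-voom). RHOBTB1, an adaptor of cullin ligases, was listed at 0 in control and had 0.27, 0.97 and 1.15 FPKM in heat stress. Its 21 footprints make it at least 8.66-fold higher, with 3 footprints taken as the floor of the whole control group, for counting error alone. Of 4 listed entries that matched the RNA degradation list outside the class, 4 rose, where 71.3% of all listed genes tested rose. These pfkfb and enoph1 entries match by letters alone. The call of pfkfb2a held with each library left out. Those of pfkfb3, PFKFB3 and enoph1 were lost without control replicate 1 or 3 or heat stress replicate 3, among others.

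Trout carry many duplicated genes from an ancient doubling of the salmonid genome, and 11 members had a second entry with the same symbol. The ratio of FPKM between such entries within a library does not depend on depth or scaling. The more abundant entry, by the mean over the 6 libraries, was set over the other. For Herpud1 this ratio was 0.521, 0.422 and 0.567 in control replicates 1, 2 and 3 and 1.54, 1.79 and 2.17 in heat stress replicates 1, 2 and 3, so the order of the entries turned. PDIA4 had ratios of 1.002, 0.998 and 1.08 in control and 1.68, 1.67 and 2.22 in heat stress. PDIA6 had 2.61, 2.03 and 2.34 and then 5.25, 5.10 and 3.88. In these 3 the entry named more abundant had the larger rise. That name came from the mean over all 6 libraries, so the rise itself entered it and this is a description.

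For atf6 and tram1l1 the ratio was lower in heat stress. That of atf6 was 2.16, 1.90 and 1.51 in control and 1.16, 1.18 and 0.859 in heat stress, and that of tram1l1 75.5, 20.7 and 39.1 and then 18.6, 17.9 and 15.7, where the less abundant entry had few footprints. Groups did not overlap in 5 of the 11 pairs, which 45.0% of the 100 such pairs among all listed genes did. Each of the 5 reached the smallest exact permutation p of 0.1, or 0.22 after Benjamini-Hochberg adjustment over the 11 pairs. In CKAP4, ERLEC1, ero1b, SEC23A, SEC24C and SRP68 the ratios of the groups overlapped. For ero1b the mean ratio was 3.35 ± 0.359 in control and 3.22 ± 0.484 under heat (SD, n = 3). How reads that fit both entries were counted is not given in the sources used here.

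**Figure D4:**
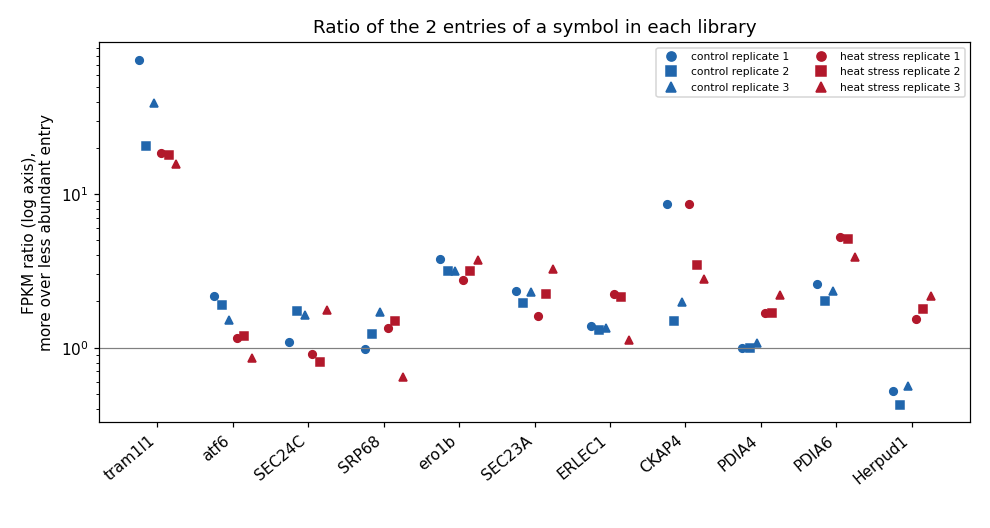
Ratio of FPKM of the more over the less abundant entry for the 11 symbols with 2 entries, in each library, on a log axis, with control in blue and heat stress in red. The grey line marks equal levels, which Herpud1 crosses from below (0.503 on average in control) to above (1.83 in heat stress). In tram1l1, atf6, PDIA4, PDIA6 and Herpud1 the groups do not overlap.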

How the data were processed

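The deposited file is a single table. Each gene has whole-number footprint counts for the 6 libraries, FPKM for the same libraries and as group means, and the authors' log2 fold change, p-value and FDR, per the file headers. Submitters' processing notes list Bowtie2 and edgeR without role or version. Which genome build, annotation and counting tool were used is not given in the sources used here. Cells are 8 characters wide, so identifiers are cut and no coordinates or sequences could be given. The members and lists were chosen with earlier results of these data known.

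Relative depth came from counts over FPKM in 94 genes with at least 200 footprints and 10 FPKM (SD at most 1.24%). A gene needed 10 depth-scaled footprints in at least 3 libraries, and 15 over all, to be tested by limma-voom (limma 3.58.1, R 4.3.3), heat stress against control, with Benjamini-Hochberg adjustment over about 29300 genes, the number the authors tested as estimated from their FDR, rank and p-value. A quasi-likelihood count test was not run. Cells of the deposited table touch, so an automatic check of units could not read its count columns. Cut at fixed width, these columns held whole numbers, and limma-voom used them. The fit was tested on simulated counts, with 200 genes changed in both directions and the true depth supplied. That does not check the case of this table, whose genes were selected for change and mostly rose. Every member may be named, but 1 is not reported here, nor drawn, and the figure of sums leaves out its role list. Counts and sums over the members include it. Library values were given for up to 4 members of each role list with the smallest p, the 5 most abundant members, and those lower in heat stress. In 18 listed rows the counts equal those of another row, and 0 of them are members. A planned search of promoters for motifs was not run, since no promoter sequences were used here. Tables and exact tests were made in Python 3.11.15 with scipy 1.17.1. Alternatives covered scaling, filters, pseudocounts, left-out libraries, the adjustment and a replicate block.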

Additional observations from a re-analysis of the deposited data

How the results depend on the processing

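The number of members that rose was 54 at recovered depth. It was 6 with TMM factors, 6 with median-of-ratios factors, 12 with summed listed footprints as library sizes and 35 of 41 with a filter of 10 FPKM in 3 libraries, which tests fewer genes. With that filter 459 of all 651 genes tested rose. With each library left out in turn between 34 and 55 members rose, and between 446 and 833 of all 1152 genes tested. The number of members that fell was 1, and it was 2, under TMM, median of ratios, summed listed footprints, no filter, the replicate block and adjustment over the 1152 genes tested, and between 1 and 2 with libraries left out. The members' median log2 fold change was 1.67, and 0.19, 0.14 and 0.75 under the 3 other scalings, 1.48 with the FPKM filter and 1.44 on log2(FPKM + 1). The median of all genes tested moved by -1.48, -1.54 and -0.93 under those scalings. The fold of the members' summed FPKM was 3.81, and 1.35, 1.30 and 1.99 under those scalings, and, by choices made after seeing the data, 3.001 without the PDIA4 and PDIA6 entries and 2.59 without the 5 most abundant members. The cause of these shifts was not tested. Among all genes tested, 81.4% of calls were higher at recovered depth and 25.3%, 24.9% and 44.1% under those scalings, and counts of calls went from 1008 to 356, 354 and 469. Marking the more abundant entry (a) and the less abundant (b), the log2 fold change turned below 0 under TMM for SEC24D -0.17, sec23a (b) -0.20, SEC23A (a) -0.14, PDIA4 (b) -0.013, NFE2L2 -0.32, atf6 (a) -0.22, erlec1 (b) -0.0601, herpud1 (b) -0.34, Nploc4 -0.40, canx -0.32, Lman1 -0.13, RRBP1 -0.0048, MTREX -0.31, bet1l -0.31, BET1 -0.34, ssr1 -0.067, Ssr4 -0.15, tram1l1 (a) -0.36, SRP68 (b) -0.034, SRP68 (a) -0.25, sec61ab -0.33 and SRP14 -0.095, none called, and outside the members for pdia3 -0.059. Under median of ratios it did for SEC24D -0.22, sec23a (b) -0.26, SEC23A (a) -0.20, PDIA4 (b) -0.068, NFE2L2 -0.38, atf6 (a) -0.28, erlec1 (b) -0.12, herpud1 (b) -0.39, Nploc4 -0.45, canx -0.38, Lman1 -0.18, RRBP1 -0.0602, MTREX -0.37, bet1l -0.37, BET1 -0.40, ssr1 -0.12, Ssr4 -0.20, Srpra -0.043, tram1l1 (a) -0.41, SRP68 (b) -0.091, SRP68 (a) -0.31, sec61ab -0.39, SRP14 -0.15 and syvn1 -0.054, none called, and outside the members for pdia3 -0.11. Call and direction held in each setting that tested them for 7 of the 58 tested members. Such a count over all genes tested is not given here, so this one only describes the members. Replicate numbers are shared between the groups in the titles. Same-numbered libraries did not deviate together (r -0.05, -0.04 and 0.01), but 3 libraries per group cannot settle whether they were paired. With the replicate block 56 members rose and 2 fell, Psma4 among them (limma-voom adjusted p = 0.0115), in place of 54 and 1, and the members' median was 1.68. Of all 1152 genes tested, 882 rose and 220 fell with the block, in place of 821 and 187. Depth limits FBXO6, stx5a, PSMB7 and RHOBTB1, with 6 or fewer footprints in a group.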

Other observations

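Within the listed genes, the share of tested genes that rose differed between KEGG classes. In the whole class of folding, sorting and degradation, chaperones included, 78 of 82 tested genes rose and 1 fell, and in the translation class 19 of 21 rose and 2 fell. In lipid metabolism 11 of 28 rose and 9 fell. Of all listed genes tested 71.3% rose and 16.2% fell. The median log2 fold change was 1.89 in the folding class and 0.01 in lipid metabolism. The latter is a midpoint between rises and falls, since the authors' log2 fold change was at least 1.003 in size for each listed gene. These are counts in a table of selected genes at recovered depth, and the difference between classes was not tested.

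Across the 58 tested members the log2 fold change went down as the control level went up, with a Spearman rho of -0.41. The points share libraries and depth, and the control level enters both measures, so this is a description.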
